A study of Mus musculus with 4 samples.

Results

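Genes of glycolysis, the pentose phosphate pathway and the response to low oxygen were followed in mouse skin cells labelled as regulatory T cells, with and without narrow-band ultraviolet B (UVB). The group was defined as 32 named genes, all of which were found by name in the 4 deposited gene tables, among 55487 gene IDs in all. Aldoa was the 1 name listed under a second ID, and that ID was at 0 in every library. By role the genes comprised 2 glucose transporters, 8 enzymes from hexokinase to triose phosphate isomerase, 2 enzymes that make or remove the regulator fructose 2,6-bisphosphate, 5 enzymes from Gapdh to Pkm, 5 genes of lactate and pyruvate handling, 4 genes of hypoxia or its target set, and 6 genes of the pentose phosphate pathway.

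The skin of the mice was inflamed with a daily 60 mg of a cream holding 5% imiquimod, which activates TLR7 and gives a psoriasis-like dermatitis. The UVB group was irradiated 3 times, on alternate days, and the non-UVB group was not, and the design text does not say separately that both received the cream. In all, 2 libraries were made for each group, numbered 1 and 2. They are called the irradiated and the unirradiated pair below. The sources used here do not give strain, age, genotype or the way the cells were sorted, and no source says whether a library came from 1 animal or from a pool. The limma p-values below set a group difference against the spread between libraries of a group. The permutation p-values set it against the same libraries relabelled. Since separate animals are not stated for the replicates either, the spread between these libraries may be technical.

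Glycolysis splits glucose into pyruvate in the cytosol, and lactate dehydrogenase and the monocarboxylate transporters dispose of the pyruvate as lactate. The pentose phosphate pathway branches off at glucose 6-phosphate and supplies NADPH and ribose 5-phosphate. Hif1a encodes the oxygen-regulated subunit of hypoxia-inducible factor, which raises transcription of most glycolytic genes, and T cells turn these genes up on activation. Regulatory T cells are generally described as less dependent on glycolysis than effector T cells, although those in tissue can be highly glycolytic.

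The libraries differed in ways that the treatment does not describe. The deposited coverage corresponded to 2.38 to 4.20 gigabases per library, and 1 read of 100 bp in a transcript of 1 kb was worth 0.0369 to 0.0612 TPM (a transcript level scaled to gene length and to the library total). Foxp3, which defines regulatory T cells, was listed at 0 TPM (unirradiated) and 3.49 TPM (irradiated) in number 1 and stood at 19.4 and 19.3 TPM in number 2. Markers of gamma-delta T cells, another T cell lineage of skin, had a sum of 10273 and 9959 TPM in number 1 but 178 and 309 TPM in number 2. Keratinocyte markers went the other way, with 264 and 418 TPM against 3664 and 3658 TPM, and haemoglobin genes took 11.7% of non-UVB replicate 1. Markers of macrophages and dendritic cells summed to 13237 and 5563 TPM in the non-UVB group and to 21831 and 13798 TPM in the UVB group, and 14 of 14 tested had the higher mean there, as did 61% of all genes tested. Both UVB libraries also listed more genes at 1 TPM or more, 10317 and 10227 against 7825 and 8033. In such bulk libraries fewer cells of a type and less RNA per cell cannot be told apart, and the part of these other cells in the results below was not tested.

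The core glycolytic genes were among the abundant transcripts of every library. The 32 genes summed to 9852 and 9987 TPM in the unirradiated pair and to 10958 and 10944 TPM in the irradiated pair, or 0.985% and 0.999% against 1.10% and 1.09% of all TPM. Both UVB sums lay above both non-UVB sums, a difference of 0.14 on the log2 scale, with p = 0.333 in an exact two-sided permutation test, which cannot go lower with 2 against 2 libraries. The difference was 0.05 when haemoglobin and mitochondrially encoded genes were left out of the total, where the groups overlapped, and it turned to -0.47 when library medians were set equal.

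**Figure D1:**
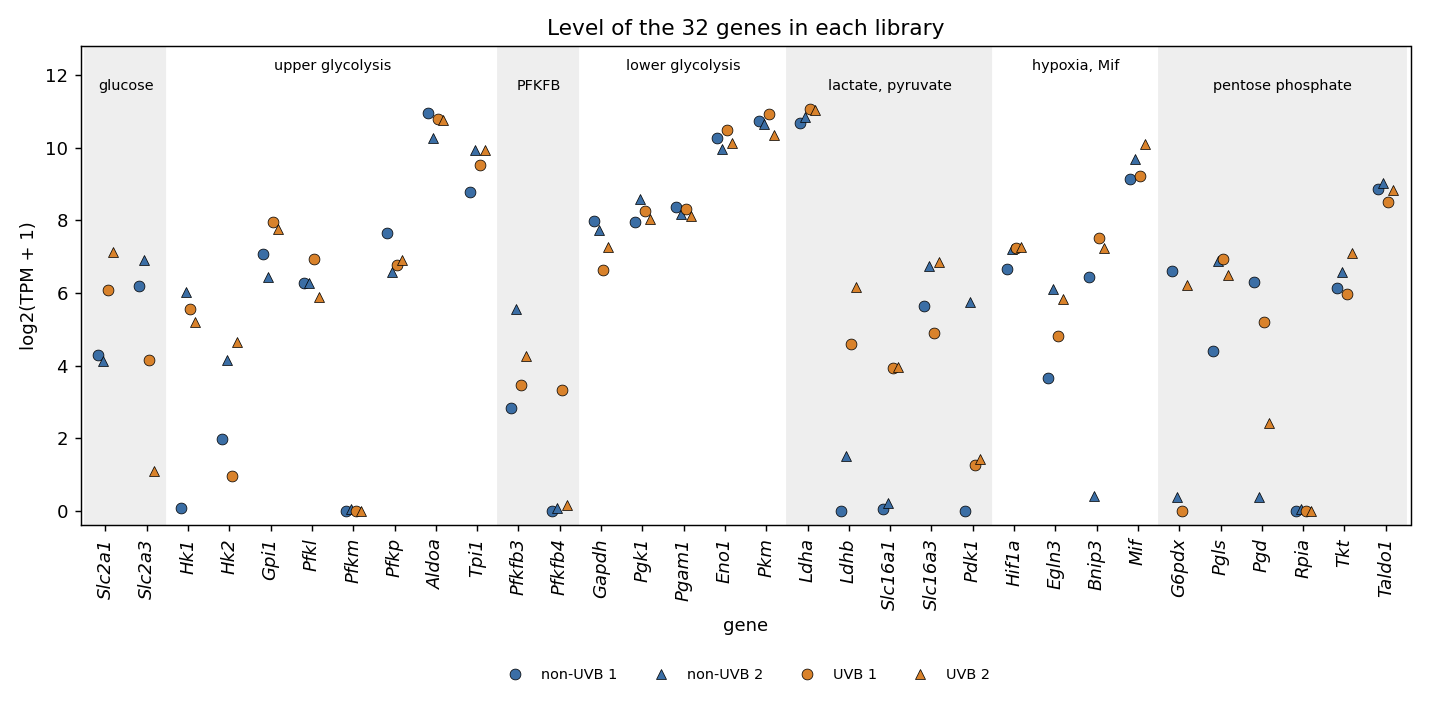
Level of each of the 32 genes in the 4 libraries as log2(TPM + 1), grouped by role, with blue points for non-UVB, orange points for UVB, circles for libraries numbered 1 and triangles for those numbered 2. Ldha, Aldoa, Pkm and Eno1 lie high and close together in all libraries, whereas Hk1, Pdk1, Bnip3, G6pdx and Pgd each have at least 1 library near 0 and others far above it.

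Ldha, which makes lactate from pyruvate, had the highest mean, with 1637 and 1848 TPM in the unirradiated pair (numbers 1 and 2, the order used throughout) and 2130 and 2084 TPM in the irradiated pair. Aldoa, an aldolase, stood at 1981 and 1220 against 1780 and 1749 TPM, Pkm, the pyruvate kinase of most tissues, at 1700 and 1605 against 1935 and 1298 TPM, and Eno1, an enolase, at 1229 and 992 against 1433 and 1121 TPM. The ranges of Ldha, Aldoa and Pkm overlapped, so the order of their means was not beyond their spread. Tpi1, Mif, Taldo1, Pgk1 and Pgam1 lay between 246 and 1102 TPM in every library. The 9 genes averaging 200 TPM or more were steady, with a median ratio of the highest to the lowest library of 1.49 and 8 of the 9 under 2, the exception being Tpi1 at 2.24. Over all 917 genes at that level the median ratio was 2.31, and 39.5% were under 2. The 20 other tested members had a median ratio of 7.97, against 91.2 for all tested genes under 200 TPM. Only 1 of these 20, or 5%, was under 2, against 9.21% of all tested genes at that level.

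At the low end, 11 of the 32 genes were under 1 TPM in at least 1 library. Pfkm, the muscle-type phosphofructokinase, and Rpia, which makes ribose 5-phosphate, were under 0.04 TPM in all 4 libraries. Pfkfb4, a bifunctional enzyme of fructose 2,6-bisphosphate, had 0 and 0.0483 TPM in the unirradiated pair against 8.96 and 0.117 TPM. These 3 genes missed the requirement of 1 TPM in at least 2 libraries, and 29 were tested. Of the 32, 5 were listed at 0 in non-UVB replicate 1, 0 in non-UVB replicate 2 and 2 in each UVB library. Several of these encode enzymes that most cells use, so such a gene is described here as listed at 0 and no more.

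The first comparison asked how UVB related to these genes. None of the 29 passed, the smallest limma adjusted p being 0.223 after Benjamini-Hochberg adjustment over 10286 genes, and 0% of all genes passed. At an unadjusted limma p under 0.05 there were 4 members, Slc2a1, Ldhb, Slc16a1 and Slc2a3, or 13.8% of those tested, against 11.3% of all genes (1167), Slc16a1 having passed the filter on low values through the UVB libraries alone. The 2 groups did not overlap for 7 members that were higher with UVB, 24.1% against 23.2% of all genes, and for 3 that were lower, 10.3% against 9.71%. In either direction 32.9% of all genes were separated. Within both numbers 9 members were higher, against 34% of all genes, and 4 lower, against 17.7%. These shares lay near the background. The median member was 0.18 log2 higher with UVB and the median of all tested genes 0.26 higher, within numbers 1 and 2 at 0.30 and 0.10 for the members and 0.27 and 0.16 for all genes.

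These counts depended on scaling. Leaving out a library cannot undo the separation of a gene still tested, so counts could fall only where a member missed the filter. A rise on leaving out a library therefore does not show that the counts leaned on it. The 7 and 3 separated members became 11 and 9 without non-UVB replicate 1, 15 and 8 without non-UVB replicate 2, and 10 and 6 when either irradiated library was left out, while the shares of all genes were then 30.9% to 46.9% higher and 21.6% to 33.9% lower. Among all separated genes 70.5% were higher with UVB, against 44.3% after quantile normalization and 42.8% after median scaling. Quantile normalization kept the same 7 and 3 members, or 24.1% and 10.3%, against 17.1% of all genes higher and 21.5% lower. The shares were thus further from the background there, and the median was 0.17 log2 for the members and -0.19 for all genes. FPKM lost Hif1a and Taldo1, against 22.4% of all genes higher and 10.2% lower. The total without haemoglobin and mitochondrial genes lost Hif1a, against 21.8% and 11.1%. Median scaling kept 5 of the 7, losing Hif1a and Ldha, against 15.1% of all genes higher. It kept the 3 lower members and added Aldoa, Eno1, Ldha, Pfkp, Pgam1, Pgk1 and Pkm, or 10 in all, against 20.2% of all genes lower.

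**Figure D2:**
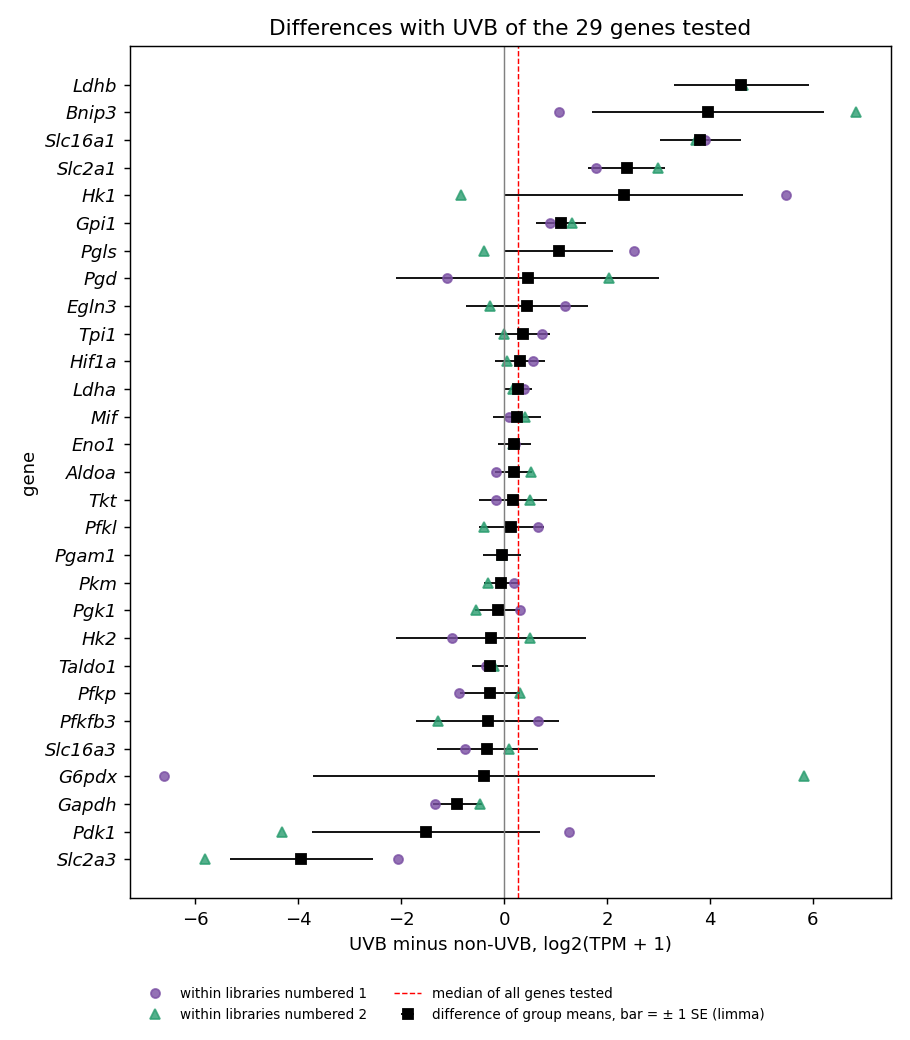
UVB minus non-UVB difference in log2(TPM + 1) for the 29 genes tested, with squares for the difference of group means and bars of 1 limma SE, circles and triangles for the difference within libraries numbered 1 and 2, and a dashed line at the median of all genes tested, 0.26. For Slc2a1, Ldhb, Slc16a1, Gpi1 and Slc2a3 both within-number values lie on the same side, and for G6pdx, Pdk1 and Hk1 they lie far apart on opposite sides.

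The glucose transporters differed in opposite directions. Slc2a1 (ENSMUSG00000028645, chromosome 4, 119108711 to 119137983, GRCm38) encodes GLUT1, the main transporter of activated T cells. It stood at 18.6 and 16.6 TPM in the unirradiated pair and at 66.5 and 138 TPM in the irradiated pair. Both UVB libraries exceeded both non-UVB libraries, by 2.38 ± 0.75 log2 (SE, n = 2 per group, limma unadjusted p = 0.0344, adjusted p = 0.357). Slc2a3 (ENSMUSG00000003153, chromosome 6, 122727809 to 122801640) encodes GLUT3, a high-affinity transporter of neurons and lymphocytes, and went the other way. It had 72.6 and 119 TPM in the unirradiated pair and 16.6 and 1.13 TPM in the irradiated pair, a difference of -3.94 ± 1.38 log2 (limma unadjusted p = 0.0478, adjusted p = 0.430), which was -2.41 without UVB replicate 2. Slc2a1 thus made up 20.4% and 12.3% of the pair's TPM without UVB and 80.0% and 99.2% with it. Which of the pair was the larger without UVB depended on the measure. Deposited coverage of Slc2a1 was 39.2 and 26.5 in the unirradiated pair and 168 and 210 in the irradiated pair. That of Slc2a3 was 10.5 and 13.1 against 2.51 and 0.118, below Slc2a1 in every library. The reason was not tested. The pair's sum did not follow UVB, at 91.3 and 135 TPM against 83.1 and 140 TPM, and was higher in the libraries numbered 2. The overlapping gene Gm4482, which cannot be fully separated from Slc2a3, had 11.9, 0, 9.15 and 0.231 TPM in non-UVB 1 and 2 and UVB 1 and 2.

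**Figure D3:**
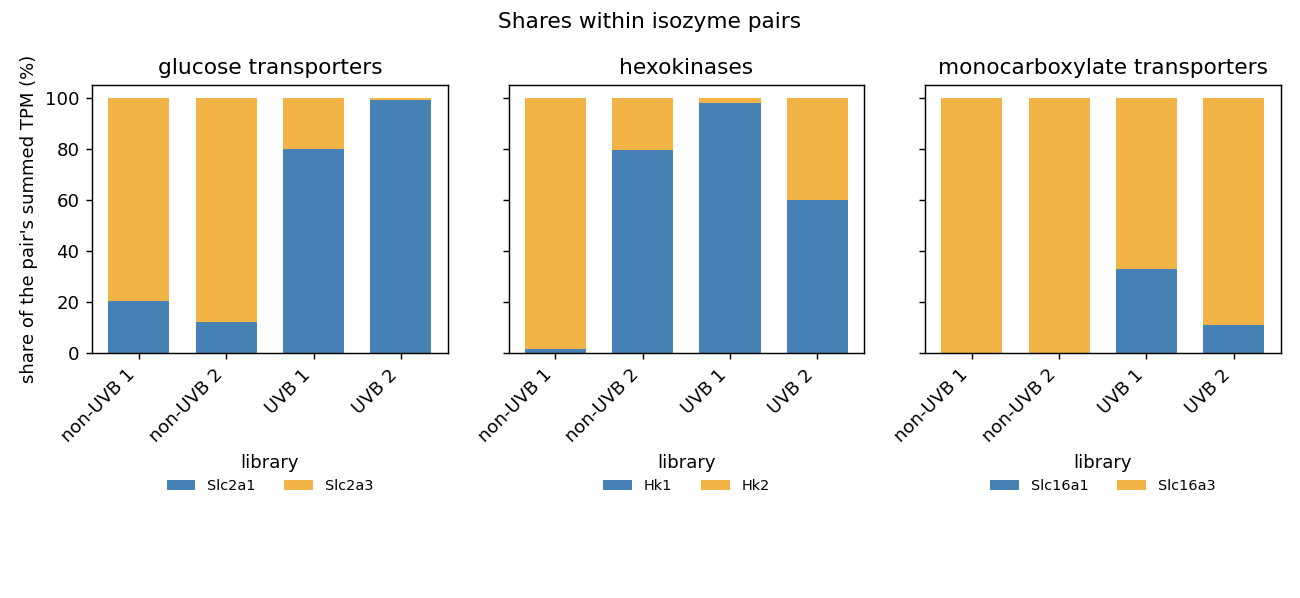
Share of each member of 3 isozyme pairs in the pair's summed TPM (percent) in each of the 4 libraries. In deposited coverage, which is not drawn, Slc2a1 is above Slc2a3 in all 4. Slc2a1 holds 12.3% to 20.4% of the glucose transporter pair without UVB and 80.0% to 99.2% with it, Hk1 ranges from 1.85% to 98.0% of the hexokinases with no order by group, and Slc16a1 reaches 33.1% and 11.2% with UVB, against 0.0578% and 0.161% without it.

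In lactate handling the scarcer isozymes Ldhb and Slc16a1 were higher in the UVB libraries, which also had more genes listed at 1 TPM or more, and the part of that difference was not tested. Ldhb (ENSMUSG00000030246, chromosome 6, 142490249 to 142507957), the heart-type lactate dehydrogenase subunit, was listed at 0 and 1.86 TPM without UVB and stood at 22.9 and 70.1 TPM in the irradiated pair, which is 4.61 ± 1.32 log2 (limma unadjusted p = 0.0259, adjusted p = 0.298). Ldha remained the bulk of the pair, and Ldhb reached 1.07% and 3.26% of it with UVB. Slc16a1 (ENSMUSG00000032902, chromosome 3, 104638668 to 104658462), the lactate transporter MCT1, had 0.0285 and 0.172 TPM in the unirradiated pair and 14.3 and 14.5 TPM in the irradiated pair. Its difference was 3.81 ± 0.79 log2 (limma unadjusted p = 0.00901, adjusted p = 0.223), and it met the filter through the UVB libraries alone, so a difference was built into its test. Slc16a3, the lactate exporter MCT4 of glycolytic cells, had 49.2 and 107 against 28.8 and 115 TPM, with the groups overlapping and the libraries numbered 2 higher. The overlapping gene Csnk1d, which cannot be fully separated from Slc16a3, was above it in every library, at 120 and 155 against 49.7 and 166 TPM. Ldha was higher in both UVB libraries by 0.28 ± 0.26 log2, which turned to -0.33 under median scaling. Pdk1, the kinase that shuts off pyruvate dehydrogenase, was at 0 and 52.7 TPM in the unirradiated pair and 1.40 and 1.71 TPM in the irradiated pair, so its difference of -1.52 ± 2.21 log2 rested on non-UVB replicate 2 and was 1.35 without it.

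The promoters of Slc2a1, Slc16a1 and Ldhb, tested isozymes that made up a larger share of their pair with UVB, are given next to that of Ldha, the abundant partner of Ldhb. Pfkfb4, which missed the filter, also had the larger share with UVB, and its promoter is not printed. It held 0% and 0.104% of its pair in the unirradiated libraries and 47.0% and 0.632% in the irradiated ones. Each run is the 250 bases upstream of a RefSeq transcription start on GRCm38, 5′ to 3′ on the gene's strand. Capitals mark the core of the hypoxia response element, ACGTG or GCGTG, on either strand (CACGT or CACGC when read on the strand shown), and a CACGTG holds the core on both strands and counts as 2.
Slc2a1 lies on the plus strand at chr4:119108495-119108744, Slc16a1 on the plus strand at chr3:104638414-104638663, Ldhb on the minus strand at chr6:142507958-142508207 and Ldha on the plus strand at chr7:46845554-46845803.
Slc2a1: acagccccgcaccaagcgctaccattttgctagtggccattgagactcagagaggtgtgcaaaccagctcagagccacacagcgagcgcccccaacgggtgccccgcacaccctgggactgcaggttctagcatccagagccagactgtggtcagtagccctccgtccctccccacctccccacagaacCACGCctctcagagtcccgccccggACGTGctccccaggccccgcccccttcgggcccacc
Slc16a1: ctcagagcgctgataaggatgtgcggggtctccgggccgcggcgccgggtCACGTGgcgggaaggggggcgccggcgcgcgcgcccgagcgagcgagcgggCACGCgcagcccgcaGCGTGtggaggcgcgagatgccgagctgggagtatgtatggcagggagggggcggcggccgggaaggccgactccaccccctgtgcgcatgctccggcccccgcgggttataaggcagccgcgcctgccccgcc
Ldhb: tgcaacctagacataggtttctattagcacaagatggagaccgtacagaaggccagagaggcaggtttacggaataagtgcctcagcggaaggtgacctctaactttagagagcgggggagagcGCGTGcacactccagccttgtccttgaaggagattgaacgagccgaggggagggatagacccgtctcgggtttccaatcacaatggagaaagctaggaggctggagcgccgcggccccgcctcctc
Ldha: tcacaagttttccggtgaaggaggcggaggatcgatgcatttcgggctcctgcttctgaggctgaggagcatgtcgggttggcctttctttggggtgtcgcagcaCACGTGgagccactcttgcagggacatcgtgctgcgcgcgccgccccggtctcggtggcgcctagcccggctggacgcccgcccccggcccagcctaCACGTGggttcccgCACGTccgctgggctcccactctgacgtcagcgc
The core was present 2, 4, 1 and 5 times in Slc2a1, Slc16a1, Ldhb and Ldha, with the sites of Slc2a1 starting 61 and 36 bases upstream of the start. RefSeq windows were matched for 31 of the 32 genes, and 25 of these, 80.6%, held at least 1 core. The share was 58.7% of 6242 matched genes tested and 42% of 20976 matched genes in all, with a median GC content of 60.4% for the members, 60% for genes tested and 54% for all. The E-box CACGTG, which is also bound by MYC and contains the core, was found in 5 members, or 16.1%, against 8.91% of genes tested. The members' windows include Pfkm, Pfkfb4 and Rpia, which were not tested, so these sets differ. Each of those genes held a core, and Pfkm also held an E-box. Gpi1, which was separated by UVB, and Hk1, Aldoa, Tpi1, Pkm and Mif had no core in this window.

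The level of Gapdh depended on whether its near-identical copies were counted. Gapdh (ENSMUSG00000057666, chromosome 6, 125161715 to 125166467), the glyceraldehyde 3-phosphate dehydrogenase often used as a reference gene, had 251 and 213 TPM in the unirradiated pair and 97.8 and 154 TPM in the irradiated pair on its own row. The groups did not overlap, and the difference was -0.91 ± 0.48 log2 (limma unadjusted p = 0.133, adjusted p = 0.740). It was -0.59 without UVB replicate 1 and -1.52 under median scaling. The fall was in TPM. Deposited coverage of Gapdh is not scaled to the library total and was read as the highest row of the gene ID. It was 165 and 127 in the unirradiated pair and 208 and 143 in the irradiated pair. These libraries held 3.41, 2.47, 4.20 and 2.38 gigabases. TPM was summed over the rows of a gene ID and coverage was not, so the measures are unlike. The part of this in the unlike course of TPM and coverage was not tested. Mouse Gapdh has many processed pseudogenes, and 101 other genes of the annotation matched a Gapdh transcript at 95% identity or more over at least 300 bases. These copies held 4262 and 4670 TPM in the unirradiated pair and 5192 and 5983 TPM in the irradiated pair. The copies were thus 94.4% and 95.6% of the sum in non-UVB replicates 1 and 2 and 98.2% and 97.5% of it in UVB replicates 1 and 2. Added together, Gapdh and its copies stood at 4513 and 4883 TPM against 5290 and 6136 TPM. The groups again did not overlap, with UVB now the higher by 0.28 log2, so the direction turned in TPM. Median scaling, which moved the median of all genes from 0.26 to -0.35 log2, was not applied to this sum. The copies Gm5559 and Gm7336, the most abundant of them and named after their values were seen, had 270 and 307 TPM and 244 and 283 TPM in the irradiated pair. Each exceeded Gapdh itself there and in non-UVB replicate 2, where they had 248 and 224 TPM.

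**Figure D4:**
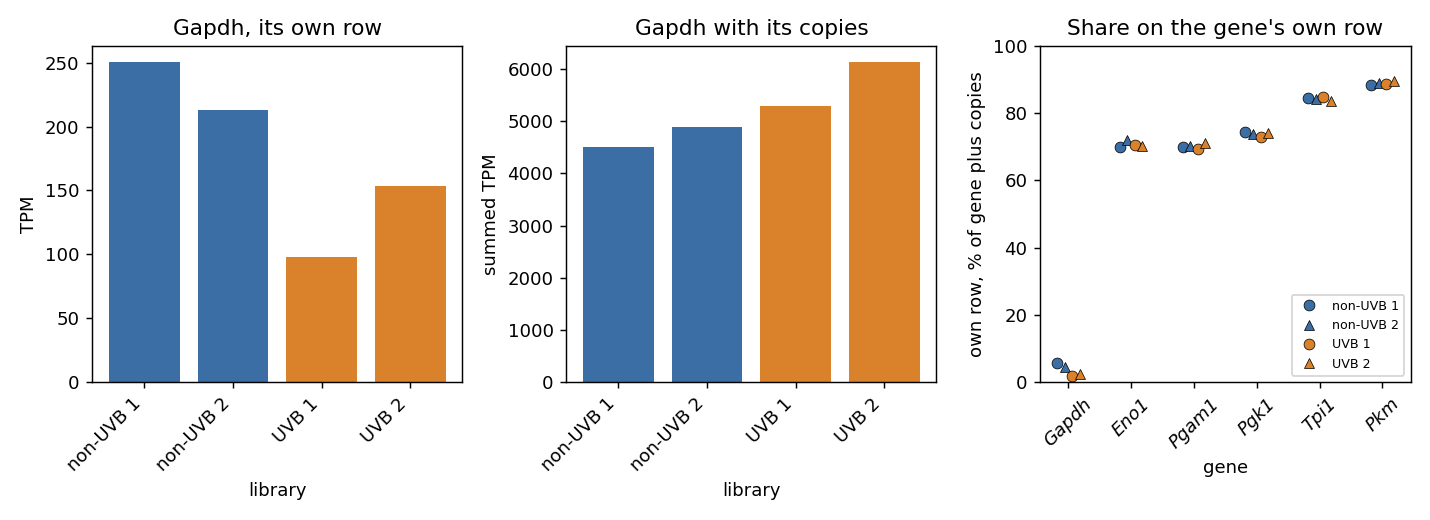
TPM of Gapdh on its own row (left) and summed with its 101 near-identical copies (middle) in each library, and the share of a gene plus its copies that lies on the gene's own row (right, percent) for 6 glycolytic genes. In TPM the own row of Gapdh is lower with UVB and the sum is higher. The copies hold 94.4% to 98.2% of the sum for Gapdh but at most 30.6% for the other 5.

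Such copies were found for 13 of the 32 genes, and 10 of them had a copy averaging 1 TPM or more. All 130 copies together summed to between 54.5% and 64.7% of the members' own TPM, most of it from Gapdh. For 5 other abundant enzymes the share on copies was similar in all libraries. It was 27.9% to 29.9% for Eno1, 28.8% to 30.6% for Pgam1, 25.7% to 27.1% for Pgk1, 15.3% to 16.3% for Tpi1 and 10.5% to 11.6% for Pkm. Adding copies moved Eno1 from 0.20 to 0.21 log2 and left the other 4 closer still to their own values. With copies in the sum the members stood at 15221 and 15727 TPM in the unirradiated pair and 17457 and 18020 TPM in the irradiated pair, a difference of 0.20 log2 (exact two-sided permutation p = 0.333). The separated members were then 8 higher and 2 lower, against 23.2% and 9.71% of all genes on their own rows. This alternative was chosen after the data had been seen and was not run under median scaling. TPM values of rows of unequal length add up only approximately.

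Among the other early enzymes, Gpi1, which turns glucose 6-phosphate into fructose 6-phosphate, was separated by UVB. It had 135 and 85.7 TPM in the unirradiated pair and 249 and 216 TPM in the irradiated pair, or 110 ± 34.5 against 232 ± 23.4 TPM (SD, n = 2 per group). The difference was 1.10 ± 0.48 log2 (limma adjusted p = 0.612), at 0.88 and 1.32 within numbers 1 and 2, and was 0.50 under median scaling. Hexokinases, which trap glucose in the cell, varied without order by group. Hk1 had 0.0560 and 64.0 TPM in the unirradiated pair and 46.0 and 35.5 TPM in the irradiated pair, and its difference of 2.32 ± 2.31 log2 turned to -0.65 without non-UVB replicate 1. Hk2, the inducible hexokinase, had 2.97 and 16.6 against 0.962 and 23.9 TPM and was higher in both libraries numbered 2. Hk1 was therefore 1.85% and 79.4% of the pair without UVB and 98.0% and 59.8% with it.

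Phosphofructokinase commits sugar to glycolysis. Pfkl, the liver type, had 76.6 and 76.4 against 122 and 58.4 TPM, and Pfkp, the platelet type, 198 and 95.1 against 108 and 119 TPM. Both were expressed in all libraries with the groups overlapping, at 0.14 ± 0.64 log2, or -0.47 under median scaling, and -0.28 ± 0.59 log2. Pfkfb3, which makes the activator of phosphofructokinase, had 6.08 and 46.2 TPM in the unirradiated pair and 10.1 and 18.3 TPM in the irradiated pair and was the higher in the libraries numbered 2. The lower enzymes Pgk1, Pgam1, Pkm and Eno1 differed with UVB by -0.13 ± 0.43, -0.04 ± 0.37, -0.06 ± 0.33 and 0.20 ± 0.32 log2, each within its SE of 0. Under median scaling they were -0.73, -0.65, -0.67 and -0.41 log2, with the groups separated, and without UVB replicate 1 Eno1 was 0.02. Tpi1 differed by 0.36 ± 0.53 and Aldoa by 0.18 ± 0.36 log2, and both turned negative under median scaling. The summed level of the 5 enzymes from Gapdh to Pkm was 3754 and 3480 TPM in the unirradiated pair and 4088 and 3110 TPM in the irradiated pair, and the UVB values lay on either side of the others.

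In the hypoxia group the 4 genes had the higher mean with UVB, as did 61% of all genes, with Hif1a, Egln3 and Mif turning negative under median scaling, and none passed the test. Hif1a had 101 and 147 TPM in the unirradiated pair and 150 and 153 TPM in the irradiated pair, a difference of 0.31 ± 0.48 log2 that was 0.04 without non-UVB replicate 1 and turned to -0.29 under median scaling. Bnip3, a target of hypoxia-inducible factor that marks mitochondria for removal, had 85.3 and 0.325 TPM against 181 and 150 TPM. Its difference of 3.95 ± 2.25 log2 rested on non-UVB replicate 2, and was 0.94 without that library and 6.97 without non-UVB replicate 1. Egln3, an oxygen sensor that is itself induced by hypoxia, had 11.5 and 68.1 against 27.3 and 55.8 TPM, and Mif, a cytokine and hypoxia target, 562 and 828 against 598 and 1102 TPM. Both were higher in the libraries numbered 2 than in those numbered 1. Their differences with UVB were 0.45 ± 1.18 and 0.25 ± 0.47 log2 and turned negative under median scaling.

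The pentose phosphate genes summed to 724 and 733 TPM in the unirradiated pair and to 581 and 754 TPM in the irradiated pair. Taldo1, the transaldolase, was the most abundant at 461 and 520 against 363 and 452 TPM, and both UVB libraries lay just below both non-UVB libraries, a difference of -0.27 ± 0.35 log2. It was -0.11 without UVB replicate 1, -0.43 without UVB replicate 2 and -0.88 under median scaling, and in FPKM the groups overlapped. Tkt, the transketolase that works with it, had 68.9 and 94.7 against 61.4 and 135 TPM, and Pgls, the lactonase, 20.1 and 117 against 121 and 89.4 TPM. G6pdx, the first and rate-limiting enzyme, had 96.1 and 0.304 TPM in the unirradiated pair and 0 and 73.0 TPM in the irradiated pair. Its difference was -6.60 log2 within number 1 and 5.83 within number 2. Pgd, the enzyme after the lactonase, had 78.0 and 0.309 TPM in the unirradiated pair and 35.7 and 4.34 TPM in the irradiated pair, with the libraries numbered 1 higher. The 2 enzymes that make NADPH were thus both under 1 TPM in non-UVB replicate 2, whereas Taldo1 and Tkt were not.

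The second comparison set the libraries numbered 2 against those numbered 1, as a description, since the number is no treatment. The numbers did not overlap for 14 of the 29 genes, against 10 separated by UVB. Of these 8 were higher in number 2, or 27.6% against 22.5% of all genes, and 6 were lower, or 20.7% against 18.5%. The higher set was Egln3, Hk2, Mif, Pdk1, Pfkfb3, Slc16a3, Tkt and Tpi1, and the lower set was Aldoa, Eno1, Pfkl, Pgam1, Pgd and Pkm. Known targets of hypoxia-inducible factor were found in both sets. The 8 higher genes were kept under quantile normalization, median scaling, FPKM and without haemoglobin and mitochondrial genes, and Hif1a joined them in the last 3 of these settings and Taldo1 under FPKM. Of the 6 lower genes quantile normalization kept all, median scaling Pgd alone, FPKM 4 and the total without haemoglobin and mitochondrial genes 5. The median difference between the numbers was 0.22 log2 for the members and 0.10 for all genes. It turned to -0.07 for the members and -0.22 for all genes without non-UVB replicate 1.

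The differences between the numbers ran from narrow to wide. Eno1 had 1229 and 1433 TPM (unirradiated, then irradiated) in number 1 against 992 and 1121 TPM in number 2. Slc16a3 had 49.2 and 28.8 against 107 and 115 TPM, and Egln3 11.5 and 27.3 against 68.1 and 55.8 TPM. These genes moved beside keratinocyte markers, of which 7 of 10 were higher in both libraries numbered 2, and beside gamma-delta T cell markers, of which all 8 tested were lower there. Among them Krt14 had 101 and 214 against 1527 and 1232 TPM, and Trdv4 had 4422 and 3531 against 119 and 159 TPM. Of the regulatory T cell markers 7 of 9 were higher in number 2, and of the macrophage and dendritic cell markers 8 of 14 were lower there. Among all genes 22.5% were higher in both libraries numbered 2 and 18.5% lower. Mitochondrially encoded genes took 0.857% and 0.487% of TPM in number 1 and 5.73% and 6.42% in number 2. The part of these in the differences between the numbers was not tested.

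Other genes of the same pathways gave a similar picture, with 0 past the adjusted threshold of limma in each list. Of 28 further glycolytic genes 6 were tested, 4 with a higher and 2 with a lower mean. Galm, which converts the anomers of sugars, had 10.1 and 0.301 TPM in the unirradiated pair and 11.1 and 65.9 TPM in the irradiated pair. Of 10 further pentose phosphate genes 3 were tested, and Prps1, which makes the ribose donor of nucleotides, had 36.5 and 0.724 against 65.7 and 87.9 TPM. Of 25 further hypoxia genes found 16 were tested, with 11 higher and 5 lower means, where 61% of all genes had the higher mean. Their median was 0.46 log2, or 0.20 above all genes. Within numbers 1 and 2 the median was -0.04 and 0.49, the positive value coming from number 2.

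Of the 16 further hypoxia genes tested 2 were separated upward by UVB, against 23.2% of all genes, and 2 downward, against 9.71%. Arnt, the constant partner of Hif1a, had 0.0194 and 0.112 TPM in the unirradiated pair and 5.37 and 16.5 TPM in the irradiated pair, a difference of 3.31 ± 0.85 log2 (limma adjusted p = 0.246), and met the filter through the UVB libraries alone. Kdm3a, a histone demethylase induced by hypoxia, had 0 and 11.3 against 18.5 and 18.4 TPM. Ndrg1, a stress and hypoxia target, was lower at 173 and 124 against 28.1 and 80.2 TPM, or -1.60 ± 0.75 log2 (limma adjusted p = 0.662). Ero1l, an oxidase of the endoplasmic reticulum, was lower at 137 and 200 against 92.5 and 85.8 TPM. Between the numbers, Ddit4, Fam162a, Higd1a, Mxi1 and P4ha1 of the 16 were higher in both libraries numbered 2, against 22.5% of all genes. Ankrd37 was lower there, against 18.5% of all genes.

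At the entry to mitochondria, 9 of 12 genes around pyruvate dehydrogenase were tested, and 3 were separated upward and 1 downward, against 23.2% and 9.71% of all genes. Pdha1, the catalytic subunit that PDK enzymes phosphorylate, had 0.171 and 0.998 TPM in the unirradiated pair and 67.3 and 9.22 TPM in the irradiated pair, a difference of 4.11 ± 1.43 log2 (limma adjusted p = 0.426). Pdk3, a kinase of the same complex, had 30.1 and 0.377 against 87.9 and 93.4 TPM, while Dld, a shared subunit, was lower at 99.1 and 76.3 against 44.7 and 0.947 TPM. Of 14 regulators of glucose use 10 were tested, with 3 separated upward and 2 downward. Among them Arrdc4, an arrestin that limits glucose uptake, was listed at 0 and 0.0467 TPM in the unirradiated pair and at 31.5 and 33.1 TPM in the irradiated pair (5.02 ± 0.97 log2, limma adjusted p = 0.223). Its relative Txnip, which takes GLUT1 off the cell surface, had 0.120 and 9.18 against 24.4 and 24.0 TPM. Slc7a5, a transporter of large amino acids, was lower at 83.5 and 46.0 against 19.4 and 3.87 TPM, and Rictor, a subunit of mTOR complex 2, at 18.6 and 14.0 against 1.53 and 4.08 TPM. Pdha1 and Arrdc4 met the filter through the UVB libraries alone.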

How the data were processed

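RNA was measured in 4 libraries, 2 per group, grouped by their titles. Per the labels' protocols they were made from total RNA with an ultra-low-input kit and read as single ends of 100 bp. The submitters' processing notes name HISAT2, StringTie, DESeq2 and the mouse build GRCm38 (mm10), per the labels, and the sources used here give no version, annotation or strand setting. The authors deposited coverage, FPKM and TPM per gene, per the file headers. Whole reads were not recovered from them, so no count test and no counting interval is given.

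TPM and FPKM were summed over the rows of a gene ID, and coverage was taken as the highest of these rows. Genes at 1 TPM or more in at least 2 libraries, 10286 in all, were fitted as log2(TPM + 1) in limma (version 3.58.1, under R 4.3.3). The model held UVB alone, the prior spread followed intensity, and a Benjamini-Hochberg adjusted p under 0.05 was the threshold. A fold change on this scale understates low genes. The members and lists were chosen with earlier results of these data known. Text names all members and up to 2 separated genes per direction of each other list with the widest difference. Of the cell type markers it names Krt14 and Trdv4, the most abundant of the keratinocyte and gamma-delta T cell lists. Foxp3, overlapping genes, copies and genes of the other lists separated between the numbers were named after their values were seen. Near-identical copies were found with BLAST+ 2.17.0 among GENCODE M21 transcripts, at 95% identity over 300 bases, and promoters come from RefSeq on GRCm38. Without strand, overlapping genes cannot be separated. Genes that overlap a member and reach 1 TPM in a library exist for 9 members, namely Slc2a3, Pfkm, Pfkp, Tpi1, Gapdh, Pkm, Slc16a3, Hif1a and G6pdx. Alternatives changed the pseudocount, filter, unit, scaling, total, spread model and replicate block. Each library was also dropped in turn.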

Additional observations from a re-analysis of the deposited data

How the results depend on the processing

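With limma 0 genes passed under the planned settings, and the smallest adjusted p of a member was 0.138, without the intensity trend. Median scaling moves the median of all genes from 0.26 to -0.35 log2. Under it the members' median was -0.42, their summed difference -0.47 and the median between the numbers 0.47. The members lower with UVB were then 10, against 20.2% of all genes. Under median scaling Pfkl (-0.47), Hif1a (-0.29), Tkt (-0.43), Tpi1 (-0.25), Pgd (-0.14), Aldoa (-0.42), Mif (-0.36), Egln3 (-0.16), Ldha (-0.33), Eno1 (-0.41) turned negative, as did Pgd under quantile normalization (-0.26). Gapdh turned to 0.28 with its copies. Leaving out 1 library, the members higher with UVB ranged from 10 to 15 and those lower from 6 to 9. Of all genes 30.9% to 46.9% were then higher and 21.6% to 33.9% lower, and a gene still tested could not lose its separation. The members' median ranged from -0.024 to 0.40 and the median between the numbers from -0.070 to 0.34. Members that turned then ranged Hk2 from -2.09 to 1.57, Pdk1 from -4.39 to 1.35, Pgam1 from -0.15 to 0.060, Pfkl from -0.38 to 0.66, Pfkp from -0.80 to 0.25, Tkt from -0.39 to 0.73, Tpi1 from -0.22 to 0.94, Slc16a3 from -1.30 to 0.66, Pfkfb3 from -1.69 to 1.05, Pgd from -2.50 to 3.42, Aldoa from -0.17 to 0.53, G6pdx from -3.50 to 2.72, Pgls from -0.17 to 2.31, Pkm from -0.35 to 0.23, Mif from -0.19 to 0.69, Egln3 from -0.79 to 1.68, Hk1 from -0.65 to 5.29, Pgk1 from -0.45 to 0.19. A library left alone in its group was taken to share the spread of the remaining group. Slc2a1, Slc2a3, Ldhb, Slc16a1, Gpi1, Bnip3 and Taldo1 kept their direction in each alternative that tested them, and Slc16a1 missed the filter without either irradiated library. The groups did not overlap for any of these genes in the main setting, so leaving out a library could not turn them. Deviations from the group means in the libraries of the same number correlated at 0.17 over 10286 genes. No source says that the number marks a shared batch. With the replicate block, limma again called 0 genes, 1110 had an unadjusted p under 0.05 against 1167, and 2 of the members against 4.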
